A study of Homo sapiens with 6 samples.

Results

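The REG family of secreted lectins was followed in the human gastric carcinoma cell line AGS, with and without celecoxib, an inhibitor of the prostaglandin-producing enzyme COX-2. The members are REG1A, REG1B, REG3A, REG3G and REG4, 5 of the 18417 genes on the Affymetrix HuGene-1_0-st array that the platform annotation names by a single symbol. All 5 were found, each with 1 transcript cluster, the set of probes that the array summarises to 1 value, so the rule of taking the brightest cluster of a gene left no choice to make. The family was picked with earlier results of the same comparison in view, so the values below are a description of how its members behaved and not an independent test that they responded.

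The labels give 2 groups of 3 arrays. Cells of both groups were grown for 48 h after seeding and then kept for 24 h, one group with 20 µM celecoxib and the other as controls labelled as given none. The drug stock was made in DMSO, and no label says if that solvent was added to the controls too. Each array took labelled DNA made from 250 ng of total RNA. In the labels the arrays are called biological replicates of 1 cell line, but a pooling of samples after the RNA quality check is mentioned as well, so the p-values measure only the spread between these arrays, which may be technical. Values are deposited RMA values on the log2 scale, in arbitrary units, so a difference of 1 is a 2-fold change.

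REG proteins are small secreted proteins built around 1 C-type lectin-like domain. REG1A and REG1B, known as lithostathines, are made in large amounts by the acinar cells of the pancreas, and REG1A is also made in the stomach, where it acts as a growth factor for the gastric epithelium. REG3A and REG3G are bactericidal lectins of the gut epithelium that are induced through the cytokine IL-22 and the transcription factor STAT3. REG4 is found in endocrine and goblet cells of the intestine and is often raised in gastrointestinal carcinomas. REG1A and REG1B are near-identical copies, and REG3A and REG3G are close relatives, so probes for one may also bind the transcript of the other.

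Of the 5 genes, 4 lie in 1 cluster on chromosome 2 and REG4 lies alone on chromosome 1. In the RefSeq gene table of assembly GRCh38.p14, the cluster runs from REG3G (chr2:79025702-79028501) through REG1B (chr2:79085023-79087993) and REG1A (chr2:79120488-79123409) to REG3A (chr2:79157006-79159753). REG4 is at chr1:119794017-119811460.

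The 250 bases before the annotated start of REG1A, REG1B and REG4 are shown because these are the members whose celecoxib arrays all lay above the controls. They come from the RefSeq promoter table of the same assembly and are written 5′ to 3′ on the gene's strand, with capitals on each match to TATAAA, the core of the TATA box, in either orientation. The windows are chr2:79120238-79120487 on the plus strand for REG1A, chr2:79087994-79088243 on the minus strand for REG1B and chr1:119811461-119811710 on the minus strand for REG4.
REG1A: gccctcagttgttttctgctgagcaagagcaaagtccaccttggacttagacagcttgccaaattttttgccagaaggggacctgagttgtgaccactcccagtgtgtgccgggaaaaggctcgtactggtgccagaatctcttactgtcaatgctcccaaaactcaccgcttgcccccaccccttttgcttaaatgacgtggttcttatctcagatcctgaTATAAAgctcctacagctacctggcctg
REG1B: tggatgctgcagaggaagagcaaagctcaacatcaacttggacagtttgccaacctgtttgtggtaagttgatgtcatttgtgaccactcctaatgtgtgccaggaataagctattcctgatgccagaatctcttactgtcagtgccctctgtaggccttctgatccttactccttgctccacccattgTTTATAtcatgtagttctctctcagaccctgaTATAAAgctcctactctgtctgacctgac
REG4: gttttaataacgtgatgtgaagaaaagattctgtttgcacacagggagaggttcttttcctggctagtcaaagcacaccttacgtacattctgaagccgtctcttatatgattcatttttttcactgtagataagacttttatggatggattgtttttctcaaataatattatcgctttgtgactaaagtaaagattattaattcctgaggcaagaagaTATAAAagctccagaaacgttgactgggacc
REG1A and REG1B shared 68.6% of aligned positions in this window, gaps counted as unlike, with a longest common run of 21 bases (tgccagaatctcttactgtca). REG3A and REG3G shared 61.8%. REG4 shared between 46.9% and 51% with the other members, which is the level of the least related pairs here. A forward TATAAA began 28 bases before the start in REG1A, 29 in REG1B and REG3A, and 31 in REG4, while REG3G had no match in its window. Over the 35116 windows of the table, 10.7% held TATAAA at any position on either strand. The share with a forward match at these positions was not counted. The core AGATAA, bound by GATA factors, was matched in both REG1A and REG4 on one or the other strand, which 9.17% of windows hold. The STAT core TTCNNNGAA was matched in REG3G alone (6.57% of windows), the AP-1 core TGANTCA in REG4 alone (6.57%) and the cyclic AMP response half-site TGACG in REG1A alone (21.2%). These matches are descriptions of the letters in the windows.

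REG1A, the gastric growth factor of the family, had the largest difference of the 5. Its values were 11.06, 10.88 and 11.26 in controls 1, 2 and 3 and 12.02, 11.67 and 11.73 in celecoxib arrays 1, 2 and 3. The lowest celecoxib array lay above the highest control. The group means were 11.07 ± 0.19 and 11.81 ± 0.19 (SD, n = 3), a difference of 0.74 ± 0.12 (SE) with a 95% interval from 0.45 to 1.02, or 1.67-fold. Such a bulk value cannot tell more cells with the transcript from more transcript per cell. The adjusted p over all genes was 0.0896 (limma), so REG1A missed the threshold of 0.05.

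REG4, the member on another chromosome, differed by almost as much. The controls were at 9.29, 9.14 and 9.53 and the celecoxib arrays at 10.10, 9.98 and 9.90. Again all celecoxib arrays lay above all controls, and the celecoxib arrays were closer together than the controls (SD 0.10 and 0.19). The difference was 0.67 ± 0.11, with an interval from 0.42 to 0.92, or 1.59-fold (limma adjusted p = 0.0808).

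REG1B, the near-copy of REG1A, had a dim cluster. Its values were 4.79, 4.86 and 5.06 in the controls against 5.66, 5.37 and 5.51 with celecoxib, with no overlap between the groups. The difference was 0.61 ± 0.10, with an interval from 0.37 to 0.85, or 1.53-fold (limma adjusted p = 0.0907).

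REG3A and REG3G, the bactericidal members, overlapped between the groups. REG3A stood at 4.65, 4.81 and 5.43 in the controls and at 5.21, 5.00 and 4.88 with celecoxib. Its difference of 0.07 ± 0.19 had an interval from -0.37 to 0.50 (limma adjusted p = 0.902), and its control SD of 0.41 was the widest of the 5 members. REG3G stood at 4.74, 4.90 and 4.68 in the controls and at 4.61, 4.65 and 4.90 with celecoxib. Its difference of -0.05 ± 0.10 had an interval from -0.28 to 0.18 (limma adjusted p = 0.867). The upper bound for REG3G lay below the lower bounds of REG1A, REG1B and REG4, while the interval of REG3A reached into theirs. Both REG3 clusters were dim, with group means between 4.72 and 5.03, a brightness not shown to be above background. A small difference there therefore does not show that these transcripts were unchanged.

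**Figure D1:**
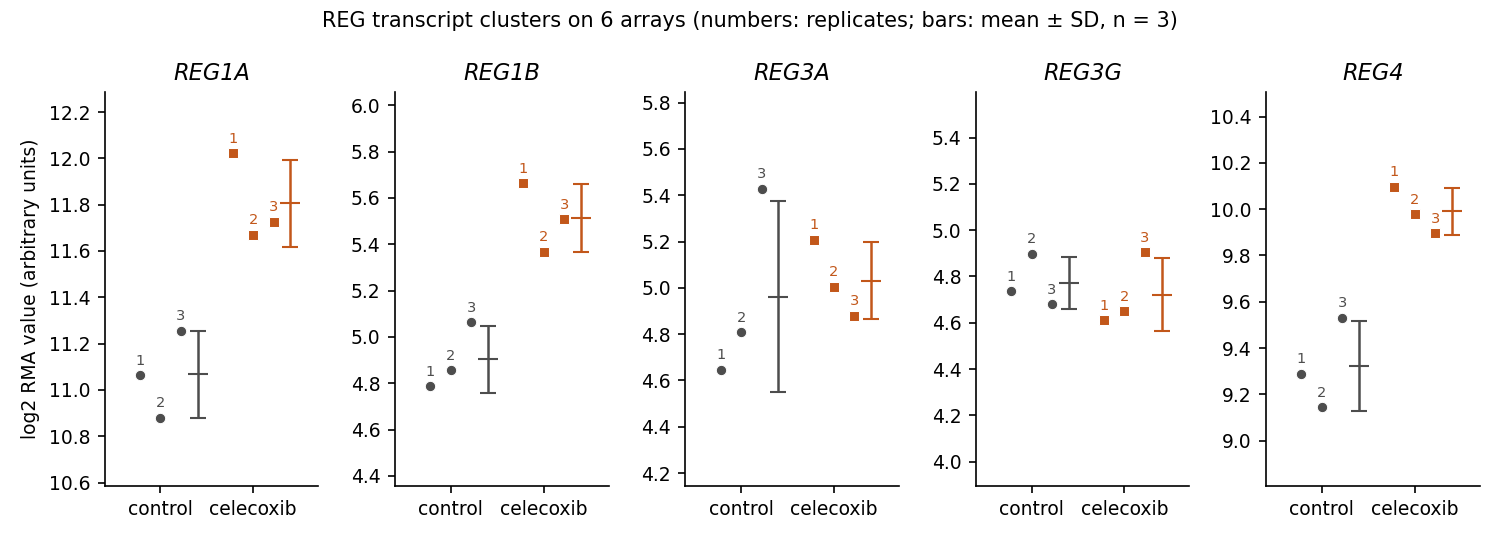
Log2 RMA value (vertical axis, arbitrary units, each panel spanning the same range) of the 5 REG clusters on the 3 control arrays (grey circles) and 3 celecoxib arrays (orange squares), with the replicate number at each point and the mean ± SD (n = 3) to the right. REG1A, REG1B and REG4 have all celecoxib arrays above all controls, and REG3A and REG3G overlap.

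Of the 5 members, 0 passed the adjusted threshold in this fit, in which 26 of 18417 genes passed (0.141%), 14 of them higher (0.076%) and 12 lower (0.0652%). Those 26 calls rested on all 6 arrays. Limma called 0 genes without control 1, control 2, celecoxib 2 or celecoxib 3, 5 genes without control 3 and 1 gene without celecoxib 1. At an unadjusted p of 0.05 or less, 3 members were higher and 0 lower, against 6.87% and 4.44% of all genes. The same 3 members had celecoxib arrays all above the controls, which 11.1% of all genes had. No member had them all below, which 7.95% of all genes had. Since the family was chosen on this contrast, nothing is read from these shares. The median difference of the 5 was 0.61, against -0.01 over all genes. By size of difference among the 18417 genes, REG1A ranked 9, REG4 ranked 15 and REG1B ranked 26 from the top. By p they ranked 62, 54 and 67.

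**Figure D2:**
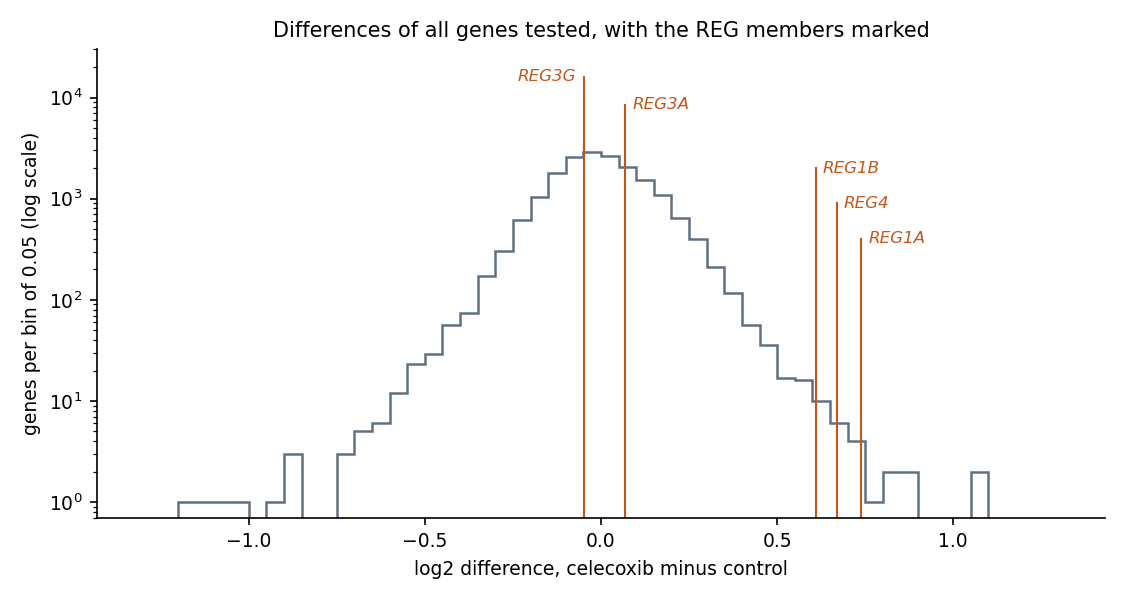
Number of genes (log scale) per bin of 0.05 of the log2 difference, celecoxib minus control, over all 18417 genes, with the 5 REG members as orange lines (their heights carry no value). REG1A (0.74), REG4 (0.67) and REG1B (0.61) lie in the upper tail, and REG3A (0.07) and REG3G (-0.05) lie near the median.

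Whether the 3 members crossed the threshold turned on analysis settings. REG1A and REG4 each passed under 5 of 19 alternative settings and REG1B under 3 of 17, and all 3 passed with array weights, which give less weight to noisier arrays (limma adjusted p between 0.0104 and 0.0127). Array weights called 177 of all 18417 genes (0.961%), against 26 without them. With an array left out, or with all 33297 clusters tested together, none of the 3 passed.

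**Figure D3:**
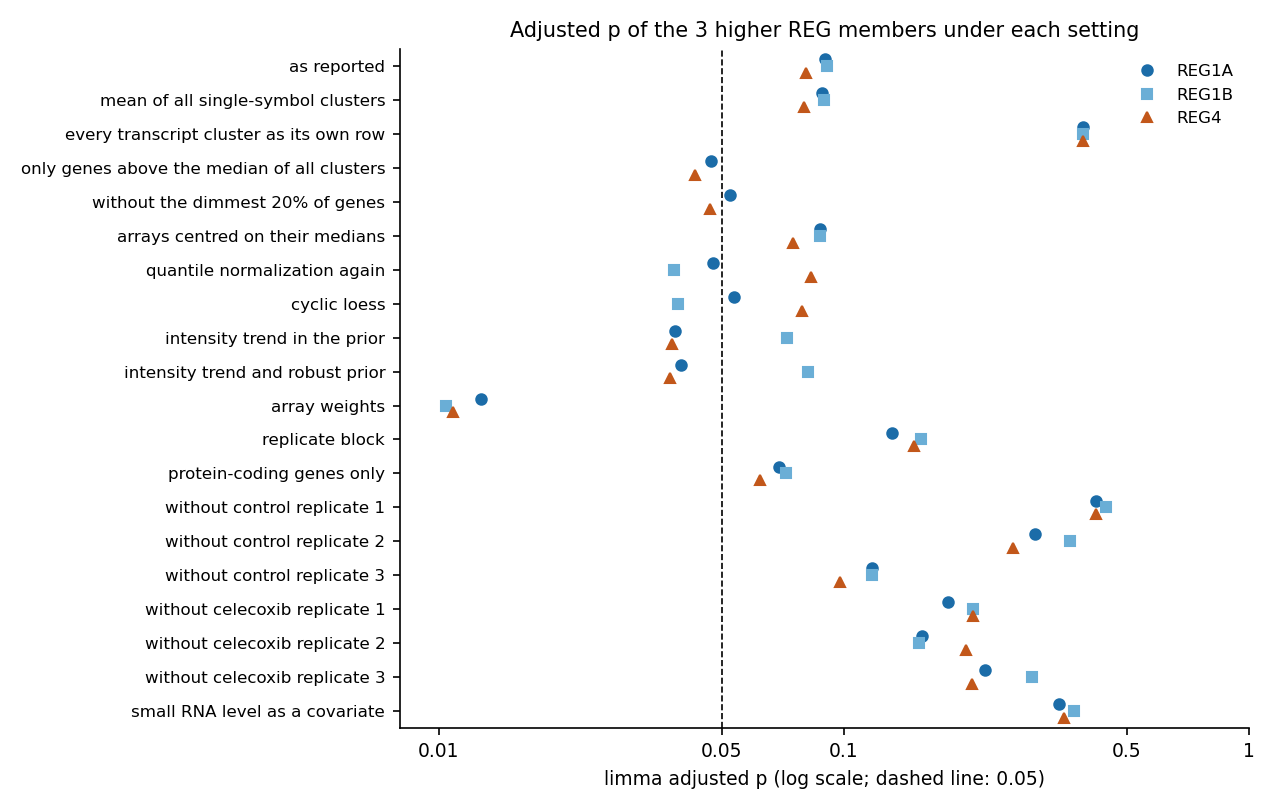
Limma adjusted p (log scale, dashed line at 0.05) of REG1A (circles), REG1B (squares) and REG4 (triangles) as reported and under each alternative setting, with settings in rows. Points are missing where a filter on dim genes left REG1B out. Only with array weights do all 3 lie left of the line.

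Brightness separated the members into 2 kinds of cluster. The REG1A cluster was brighter than 98.3% of genes and the REG4 cluster brighter than 88.6%, averaged over all arrays. REG1B, REG3A and REG3G were brighter than 13.96%, 11.2% and 8.23%. For comparison, the clusters of 338 olfactory receptor genes, which epithelial cells mostly do not use, had a median of 5.00, with 90% of them between 3.50 and 6.29. The means of REG1B, REG3A and REG3G in both groups fall inside that span. Clusters differ in how strongly their probes bind, so these percentages place each cluster on the array and do not rank the transcripts by amount.

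REG1B, the dim cluster, had a group difference close to that of REG1A, so the gap between them also stayed close to constant. The log2 gap between REG1A and REG1B was between 6.02 and 6.28 in the controls and between 6.22 and 6.36 in the celecoxib arrays, and its mean changed by 0.13 (SD 0.13 in the controls and 0.07 with celecoxib, n = 3). The share of REG1B signal that comes from REG1A transcript was not tested, because probe sequences were not used here. The REG1B values are therefore those of a cluster that may read both transcripts, at a brightness not shown to be above background. A gap that is alike in both groups restates the similar differences on which the family was chosen and gives no further support to either gene. For REG3A and REG3G, the other close pair, the gap ranged from -0.09 to 0.75 in the controls and from -0.02 to 0.60 with celecoxib.

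REG4, on another chromosome, likewise had a difference close to that of REG1A. Transcript and probe sequences were not compared for this pair either. The REG1A to REG4 gap was 1.75 ± 0.03 in the controls and 1.82 ± 0.12 with celecoxib (SD, n = 3), a change of 0.07. Profiles were compared as each gene's log2 values over the 6 arrays after subtracting its mean, by root mean square distance. By this measure REG4 was the nearest of all genes to REG1A (distance 0.077), and REG1A was the third nearest to REG4. REG1B ranked 10 in nearness to REG1A. REG3A and REG3G ranked 6018 and 14307. The distance includes the difference between groups, on which the family was chosen. These ranks therefore largely restate the similar differences and give no further support.

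Other genes lay as near. After REG4, the nearest to REG1A were SMPDL3A, a phosphodiesterase of the acid sphingomyelinase family (0.084), TMEM38B, a subunit of an intracellular potassium channel (0.085), the stress transcription factor DDIT3 (0.086) and the membrane protein TMEM45B (0.0999). Nearest to REG1B were DDIT3 (0.050), TMEM38B (0.066), TMEM45B (0.071), the short-chain dehydrogenase HSD17B11 (0.076) and CEACAM5, the carcinoembryonic antigen (0.083). Nearest to REG4 were MBNL3, a splicing regulator (0.058), the calcium-binding membrane protein MCTP1 (0.061), REG1A, TMEM38B (0.085) and ESRRG, an orphan nuclear receptor (0.088). All of these genes were higher with celecoxib with no overlap between groups, as a profile like that of the REG members requires. Of them, TMEM45B, HSD17B11 and MCTP1 passed the threshold (limma adjusted p = 0.0365, 0.0328 and 0.0296). Each of these 3 calls was made under 10 of 19 alternative settings. None of the 3 was called with any 1 array left out, with the replicate block, with all 33297 clusters tested together or with the small RNA covariate described below.

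Within each group, where the contrast plays no part, 4 of the 5 members were highest on the same arrays. Control 3 was the highest control for REG1A (0.19 above the control mean), REG1B (0.16), REG4 (0.21) and REG3A (0.47). Celecoxib 1 was the highest celecoxib array for the same 4 genes, at 0.22, 0.15, 0.11 and 0.18 above the mean. REG3G went the other way and was lowest in control 3 and in celecoxib 1, at -0.09 and -0.11 from its group means. The gene lists read below went both ways. The goblet, Paneth and endocrine list had its highest mean in control 3 (5.85) and in celecoxib 1 (5.82). The receptor list had its lowest means there (8.25 and 8.20). How many of all genes were highest in both arrays was not counted. The pattern is therefore not shown to be particular to the family. The level of small RNA was also highest in control 3 and in celecoxib 1. The median of 195 small nuclear and nucleolar RNA genes was 7.11, 6.98 and 7.13 on control arrays 1 to 3 against 7.49, 7.21 and 7.17 on celecoxib arrays 1 to 3, with no overlap between groups. With that level as a covariate, an alternative chosen after seeing the data, the differences were 0.47 for REG1A, 0.49 for REG4 and 0.46 for REG1B (limma adjusted p = 0.340, 0.351 and 0.371). As the small RNA level itself differed between the groups, this fit cannot tell it apart from the treatment. Without celecoxib 1 they were 0.63, 0.62 and 0.54.

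**Figure D4:**
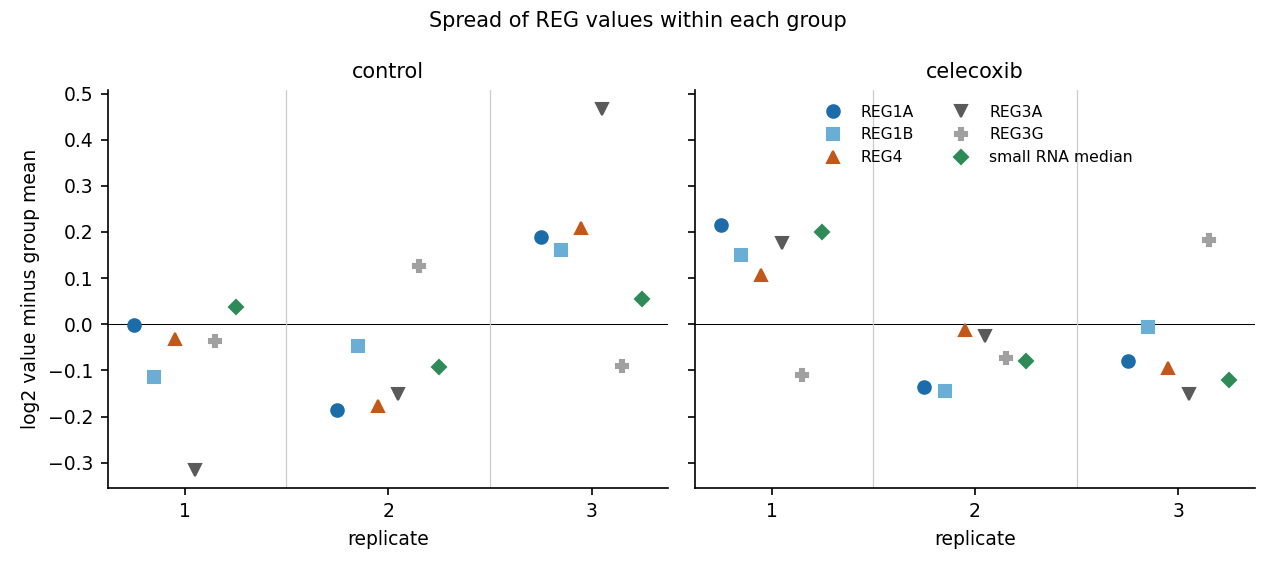
Deviation of each array's log2 value from its group mean (vertical axis) for the 5 REG members and for the median of small nuclear and nucleolar RNA (diamonds), by replicate, controls left and celecoxib right. REG1A, REG1B, REG4 and REG3A are highest in control 3 and in celecoxib 1, and REG3G is lowest there.

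Genes next to the REG loci were read to see whether the differences extended along the chromosome. Of the 10 named protein-coding genes nearest to the chromosome 2 cluster (5 on each side), all were measured, 6 were higher, and their median difference was 0.02. Directly beside the cluster, LRRTM4, a synaptic adhesion protein, was at 0.02 ± 0.14 (SE) and CTNNA2, a neuronal alpha-catenin, at -0.16 ± 0.09. Both clusters were dim, with group means between 5.30 and 5.46, inside the olfactory receptor span given above. Their values therefore do not show whether the differences stop at the REG genes. Farther out, SUCLG1, a subunit of succinyl-CoA ligase, was at 0.43 ± 0.13 and GCFC2 at 0.28 ± 0.08 (limma adjusted p = 0.315 and 0.308), the mitochondrial ribosomal gene MRPL19 at 0.22 ± 0.10, and TRABD2A at 0.12 ± 0.09. These clusters were brighter, with group means between 8.23 and 9.50. All but TRABD2A had celecoxib arrays all above the controls, as 11.1% of all genes had. The remaining neighbours EVA1A, TACR1, LRRTM1 and DNAH6 lay between -0.14 and 0.03. Of these, DNAH6 was brighter (7.59 and 7.56) and the others dim, with group means between 5.25 and 5.68. Around REG4, 7 of 10 neighbours were measured and 3 were higher, with a median of -0.11. The steroid dehydrogenase HSD3B1 was at -0.31 ± 0.08 and its neighbour and close copy HSD3B2 at 0.32 ± 0.16. HSD3B2 was dim (4.92 and 5.24) and overlapped between groups, so its sign is uncertain. SEC22B, a vesicle fusion protein, was at 0.27 ± 0.08, ZNF697 at -0.25 ± 0.10, the receptor NOTCH2 at -0.14 ± 0.13, PHGDH of serine synthesis at -0.11 ± 0.08 and ADAM30 at 0.04 ± 0.12. Of the 17 measured neighbours, 0 passed the adjusted threshold by limma and 5 (29.4%) had an unadjusted p of 0.05 or less, where 11.3% of all genes did.

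**Figure D5:**
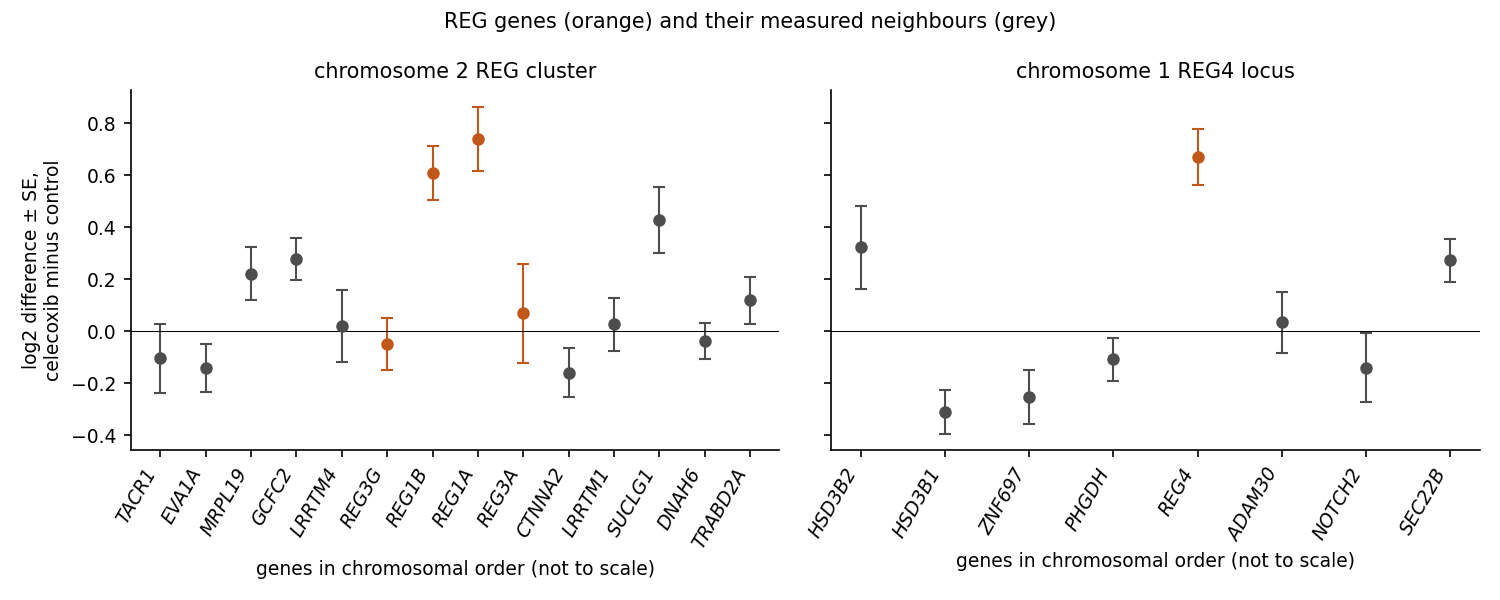
Log2 difference ± SE, celecoxib minus control, of the REG genes (orange) and their measured neighbours (grey) in chromosomal order, not to scale, for the chromosome 2 cluster and the REG4 locus. REG1B (0.61) and REG1A (0.74) stand between REG3G (-0.05) and REG3A (0.07), and REG4 (0.67) stands above its neighbours.

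Genes tied to REG signalling, regulation and function were read from 10 lists of 210 genes, of which 186 were measured. By limma 0 of the 186 passed the adjusted threshold (smallest adjusted p = 0.0966), and 21 (11.3%) had an unadjusted p of 0.05 or less, 10 higher and 11 lower, where 11.3% of all genes did.

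Receptors and binding partners come first. EXTL3, a heparan sulfate glycosyltransferase described as a receptor for REG1A and REG3A, was at 7.94 ± 0.19 in the controls and 7.96 ± 0.18 with celecoxib (SD, n = 3), a difference of 0.03 with an interval from -0.26 to 0.31. CD44, a hyaluronan receptor described as a partner of REG4, differed by 0.05, with an interval from -0.10 to 0.20. EXTL2, a relative of EXTL3 in the same biosynthesis, stood at 6.80, 6.81 and 6.89 in the controls and 7.48, 7.17 and 7.30 with celecoxib. Its groups did not overlap and its difference was 0.48 ± 0.09 (SE, limma adjusted p = 0.120). It passed with array weights (limma adjusted p = 0.0166), the setting that called 177 genes. EXT1, a polymerase of the same chain, was at -0.33 ± 0.18 and AKT1, a survival kinase downstream of REG proteins, at -0.19 ± 0.13, both overlapping and both lowest in celecoxib 1. Of the 11 measured genes of this list, 6 were higher and 5 lower, with a median of 0.01.

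Inputs that induce REG3 genes came next. Of 25 measured genes of the IL-22, IL-6 and STAT3 pathway, 7 were higher and 18 lower, with a median of -0.05, where 8823 of all 18417 genes were higher. STAT3 itself was at 11.08 ± 0.08 and 11.01 ± 0.19 (SD, n = 3), a difference of -0.07 with an interval from -0.31 to 0.17. LIFR, the receptor for leukaemia inhibitory factor, was at -0.22 ± 0.06 (SE) and SOCS3, the feedback inhibitor that STAT3 induces, at -0.27 ± 0.09, both with no overlap. IL6ST, the shared receptor chain gp130, was at 0.23 ± 0.07 with no overlap. The adjusted p of these 3 lay between 0.304 and 0.343 (limma). At an unadjusted limma p of 0.05 or less, 1 gene of the list was higher and 5 lower, against 6.87% and 4.44% of all genes. Celecoxib arrays lay all above the controls for 2 genes and all below for 6, against 11.1% and 7.95% of all genes.

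Of 19 measured transcription factors tied to REG genes or to gut epithelium, 5 were higher and 14 lower, with a median of -0.08. GATA4 and GATA6, factors of gastric epithelium, were at -0.21 ± 0.09 and -0.24 ± 0.12, and HNF4G at 0.13 ± 0.08. CDX2, the intestinal homeobox factor, was at -0.07 (limma adjusted p = 0.867).

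Other antimicrobial and secretory genes had differences in both directions. Of 22 measured antimicrobial genes of epithelia, 9 were higher and 13 lower (median -0.03). DMBT1, a scavenger protein of mucus, was at -0.30 ± 0.08 and the elastase inhibitor PI3 at -0.23 ± 0.14. BPI, which binds bacterial endotoxin, was at 0.28 ± 0.08 in a dim cluster. Of 22 measured genes of goblet, Paneth and endocrine lineages, 6 were higher and 16 lower (median -0.07). Among them, AGR2, a folding factor for mucins, stood at 5.98, 5.87 and 6.05 in the controls and 6.77, 6.29 and 6.34 with celecoxib, a difference of 0.50 ± 0.13 (limma adjusted p = 0.264). As for REG1A, celecoxib 1 was its highest array. KIT was at -0.23 ± 0.08 and INSM1, a factor of endocrine cells, at -0.15 ± 0.07. Of 35 measured galectins and C-type lectins, 17 were higher and 18 lower (median -0.005). LGALS4, the galectin of gut epithelium, was at 0.24 ± 0.09 with no overlap, CLEC4D at 0.25 ± 0.12 and COLEC10 at -0.25 ± 0.10.

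The markers of cell types were read for the line itself and for the pancreas, where REG1A is most abundant. Their brightness was mixed within each list. Of the 20 measured genes of the gastric list, which also holds general epithelial genes, 11 (55%) were brighter than the median of all clusters. So were 59% of all genes, as that median was taken over all 33297 clusters and lies below the middle of the 18417 genes. The epithelial genes EPCAM, KRT8, KRT18 and KRT19 were brighter than 99.1%, 99.6%, 99.2% and 97.8% of genes (averaged over all arrays). KRT7, TFF2 and KRT20 of the same list were brighter than 42.2%, 36.3% and 24.99%. Stomach genes of the list were spread widely. PGC was brighter than 86.8% of genes, TFF1 than 57.2%, MUC6 than 39.5% and ATP4A than 31.6%. GKN1, GKN2 and LIPF lay among the dimmest, at 1.55%, 1.42% and 0.548%. Of the 9 leukocyte markers, 3 (33.3%) were above that median. CD68, a lysosomal protein used as a macrophage marker, was brighter than 66.6% of genes, CSF1R than 51.9% and NKG7 than 45.4%, and PTPRC, the pan-leukocyte CD45, than 2.70%. Of the 10 fibroblast and endothelial markers, 2 (20%) were above it, PDGFRA and COL1A1, brighter than 61.3% and 57.7% of genes, and DCN and LUM were brighter than 1.28% and 0.342%. As above, such percentages do not show which of these transcripts the cells held. In the gastric list, 7 were higher and 13 lower, with VIL1, an actin bundler of microvilli, at -0.47 ± 0.08 (limma adjusted p = 0.0966), KRT18 at -0.21 ± 0.07 and CLDN18, the gastric claudin, at 0.17 ± 0.07. Among the leukocyte markers, 3 were higher and 6 lower, with CD14 at -0.16 ± 0.11, ITGAM at -0.08 ± 0.09 and CD3D at -0.09 ± 0.08. Among the fibroblast and endothelial markers, 6 were higher, with LUM at 0.24 ± 0.10, COL1A1 at -0.12 ± 0.07 and PDGFRB at -0.13 ± 0.08.

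Of 13 measured pancreatic acinar genes, 6 were higher and 7 lower (median -0.001), and the mean of the list was 6.16 to 6.32 in the controls and 6.24 to 6.29 with celecoxib. SPINK1, a trypsin inhibitor that the stomach also makes, stood at 7.97, 7.87 and 8.22 in the controls and 8.998, 8.33 and 8.27 with celecoxib, a difference of 0.51 ± 0.19, with celecoxib 1 as its highest array (limma adjusted p = 0.380). The trypsinogen PRSS1 was at 0.27 ± 0.07 with no overlap (adjusted p = 0.273) and the carboxypeptidase CPB1 at 0.30 ± 0.13, both in dim clusters.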

How the data were processed

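The deposited table holds log2 values for 33297 transcript clusters on 6 arrays, which the authors made with RMA in Affymetrix Expression Console 1.1, per the submitters' processing notes. RMA corrects background, makes the arrays' distributions alike by quantile normalization and summarises probes. How probes were handled within RMA is not stated in the sources used here. The median log2 value of an array was between 6.75 and 6.82, and Pearson's r between arrays, across clusters, between 0.985 and 0.996. The number of arrays limits the precision. Signal over background and scan batches were not analysed here.

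Clusters with 1 symbol (19460) were kept, and the brightest stood for a gene, which left 18417 genes. Groups were compared by limma 3.58.1 (lmFit, eBayes) under R 4.3.3, two-sided, with Benjamini-Hochberg adjustment over these genes and a threshold of 0.05. In 10 simulated data sets of 18417 genes with independent noise and 200 changed genes, limma recovered 77.6% of log2 changes of 0.5 and 99.6% of changes of 1. Of its calls, 6.25% were false. The simulated noise was normal, took each gene's SD from limma's own estimate and held no effects shared by an array. These shares therefore check the code and do not give the power or false calls of the real arrays. Differences are celecoxib minus control, and ± is a standard error unless marked SD. The members, lists and alternatives were chosen with earlier results of these data known. Named are all members, EXTL3, CD44 and STAT3, the 3 smallest p of each list, the measured neighbours, and the 5 nearest profiles of each member without overlap; CDX2 and the markers given by brightness alone were added after their values were seen. Promoter motifs were chosen after the sequences had been seen. Promoters were aligned with Biopython 1.88, and figures drawn with matplotlib 3.10.9 in Python 3.11.15.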

Additional observations from a re-analysis of the deposited data

How the results depend on the processing

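The alternatives all reused the arrays on which the family was chosen, so they give no independent support. REG1A, REG1B and REG4 were higher with celecoxib under every alternative that tested them. With an array left out their differences ranged from 0.63 to 0.83, 0.54 to 0.69 and 0.58 to 0.77, and limma called 0 of the 5 members each time. The number of members called was 2 among genes above the median signal (REG1A 0.74, REG4 0.67), 1 without the dimmest 20% of genes (REG4 0.67), 2 after quantile normalization again (REG1A 0.71, REG1B 0.63) and 1 after cyclic loess (REG1B 0.63). Over all genes the same settings called 76 of 10873 (0.699%), 59 of 14733 (0.4%), 44 of 18417 (0.239%) and 42 of 18417 (0.228%). The number of members called was 2 with an intensity trend in the variance prior and 2 with a robust prior added (REG1A 0.74, REG4 0.67), and 3 with array weights (REG1A 0.70, REG1B 0.67, REG4 0.67), settings that called 69 (0.375%), 69 and 177 (0.961%) of all 18417 genes. The filters test fewer genes and leave out the dim REG1B, REG3A and REG3G; the cause of the other calls was not tested. Of the other lists, VIL1 was called among genes above the median signal and with both trend settings (1 gene each), and VIL1 and EXTL2 with array weights (2 genes). With small RNA as a covariate the median of the 5 members was 0.46.

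The signs of REG3A and REG3G were not stable. With an array left out REG3A ranged from -0.088 to 0.303 and REG3G from -0.141 to 0.0138. With the covariate they were -0.18 and 0.12, and with array weights REG3G was 0.0234. Deviations from the group means, over all genes, correlated between same-numbered arrays at -0.02, 0.49 and 0.01 for replicates 1, 2 and 3. Whether these arrays were handled as pairs was not tested. With the replicate block the differences were the same, and the limma adjusted p of REG1A, REG1B and REG4 were 0.132, 0.155 and 0.149. That setting called 0 genes over the whole table in place of 26.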
